A study of Rattus norvegicus with 34 samples.

Results

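Gene expression in the liver was compared between male Brown Norway rats of 4 months given toluene and untreated rats of the same strain and age. The comparison uses 6 of the 34 arrays of the series, chosen by strain, age and treatment as the labels give them, with 1 array for each rat. The 3 dosed rats, labelled high dose, received toluene at 1 g/kg body weight by gavage in corn oil and were killed 4 h later. The labels of the 3 control rats state no treatment, so an effect of toluene cannot be told apart from an effect of gavage or corn oil. All were housed individually, and no time of day, array date or batch is given. The other arrays are from Brown Norway rats of 12 and 24 months, with 3 dosed and 3 control animals at each age, and from 16 undosed F344 rats. The study concerns the expression of xenobiotic metabolising enzymes in ageing male rats.

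Toluene is a volatile aromatic solvent that the liver clears by oxidation. Cytochromes P450, fed with electrons by the reductase Por, oxidise its methyl group to benzyl alcohol, alcohol and aldehyde dehydrogenases carry this on to benzoic acid, and benzoic acid is joined to glycine and excreted as hippurate. Foreign compounds can also raise the liver's own enzymes. The constitutive androstane receptor (CAR), which together with the pregnane X receptor (PXR) responds to many drugs and solvents, raises Cyp2b P450s, Por and Alas1, the first and rate-limiting enzyme of the heme synthesis on which every P450 depends.

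The results turned on Alas1, Tsku and the pair Cyp2b1 and Cyp2b2, and the stretch of 250 bases directly upstream of each gene's start is shown so that they can be set against each other. Tsku encodes tsukushi, a secreted leucine-rich repeat protein of the liver. The sequences are those of RefSeq on build GRCr8, and a promoter entry was found for all 4 genes. They read 5′ to 3′ on the gene's strand, and capitals mark the letters GCGTG, the core of the sites bound by the aryl hydrocarbon receptor.
Alas1, chr8:115768643-115768892, minus strand: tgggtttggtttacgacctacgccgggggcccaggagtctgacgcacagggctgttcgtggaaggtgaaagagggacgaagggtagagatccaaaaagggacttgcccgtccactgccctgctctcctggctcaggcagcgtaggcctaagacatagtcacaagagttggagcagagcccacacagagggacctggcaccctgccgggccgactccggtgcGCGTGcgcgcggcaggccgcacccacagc
Tsku, chr1:162082769-162083018, minus strand: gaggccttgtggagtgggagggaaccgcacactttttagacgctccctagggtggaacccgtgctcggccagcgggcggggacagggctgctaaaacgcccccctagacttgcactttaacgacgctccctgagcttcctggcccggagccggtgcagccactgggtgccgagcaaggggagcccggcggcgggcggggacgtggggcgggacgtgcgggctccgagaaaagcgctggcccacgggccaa
Cyp2b1, chr1:90645869-90646118, plus strand: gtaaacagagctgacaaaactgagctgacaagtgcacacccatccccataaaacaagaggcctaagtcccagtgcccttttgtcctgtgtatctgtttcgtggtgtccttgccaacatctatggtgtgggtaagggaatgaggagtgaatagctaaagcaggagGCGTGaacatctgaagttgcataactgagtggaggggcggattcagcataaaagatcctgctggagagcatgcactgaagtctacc
Cyp2b2, chr1:90722031-90722280, plus strand: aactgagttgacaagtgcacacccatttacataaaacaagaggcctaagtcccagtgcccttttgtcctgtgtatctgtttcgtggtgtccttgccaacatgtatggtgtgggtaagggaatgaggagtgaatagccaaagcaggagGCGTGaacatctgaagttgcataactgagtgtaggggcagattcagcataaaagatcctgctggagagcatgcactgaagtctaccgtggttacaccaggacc
Shifted by 17 bases, the Cyp2b1 and Cyp2b2 stretches were identical at 225 of 233 aligned bases (96.6%), and a single probe set of the array names both genes. Both strands were searched for GCGTG, for AGGTCA, the core letters bound by nuclear receptors such as CAR and PXR, and for TGACNNNGC, the core bound by the oxidant-responsive factor NRF2. GCGTG had 1 match in each of the Alas1, Cyp2b1 and Cyp2b2 stretches and 0 in that of Tsku, where 25.9% of 33469 promoters of this length held it. AGGTCA, found in 14.1% of them, and TGACNNNGC, found in 10.1%, had 0 matches in all 4. A match describes the letters of this window and does not show binding, and the known phenobarbital-responsive enhancer of the Cyp2b genes lies farther upstream than the window reaches.

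The deposited values are linear probe set signals, and signals under 32 were raised to that floor before log2 was taken. Of 23271 probe sets, 13972 lay above the floor on at least 3 of the 18 Brown Norway arrays and were tested with limma, and 9299 were left out. The median log2 fold change of toluene over control was 0, with the 5th and 95th percentiles at -0.355 and 0.351, and the 95% confidence interval reached a median of 0.387 to either side. The list of hepatocyte markers, such as albumin and transthyretin, had tested probe sets for 16 of its 16 genes, and their summed signal lay between 115585 and 123408 on the 6 arrays. Fewer cells of a type and less RNA per cell cannot be told apart in such whole-tissue samples. The p-values rest on a spread between rats that was estimated jointly over the 18 Brown Norway arrays, 3 in each group of age and treatment. They do not measure the spread of the 6 compared rats alone.

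A pair of arrays stood apart from the other 4. The correlation of log2 signals across probe sets, averaged over the other 4-month arrays, was 0.9504 for control replicate 2 and 0.9624 for dosed replicate 1, and 0.9682 to 0.9757 for the rest. On control replicate 2, 478 probe sets lay more than 2-fold above the median of the other 5 arrays and 177 more than 2-fold below it. On dosed replicate 1 these counts were 217 and 19, and on the remaining 4 arrays they ranged from 21 to 37 above and from 10 to 69 below. Control replicate 2 was high in genes of the acute-phase and inflammatory response. Lcn2, an iron-binding acute-phase protein, had a signal of 3030 there and of 33.9 to 45.3 elsewhere, and the neutrophil-attracting chemokine Cxcl1 had 2055 against 4.43 to 43.5. Dosed replicate 1 was high in muscle and connective tissue genes. Tnni2, the troponin I of fast skeletal muscle, had a signal of 2861 there and of 2.13 to 27.2 elsewhere, and the matrix proteoglycan Dcn had 1246 against 57.1 to 88.0. Summed over 11 probe sets of stellate cell and fibroblast markers, dosed replicate 1 reached 5201, the other arrays 1260 to 1650. Summed over the 2 tested neutrophil marker probe sets, control replicate 2 reached 405, the others 27.9 to 53.1. These genes were looked up after the arrays' values had been seen.

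**Figure D1:**
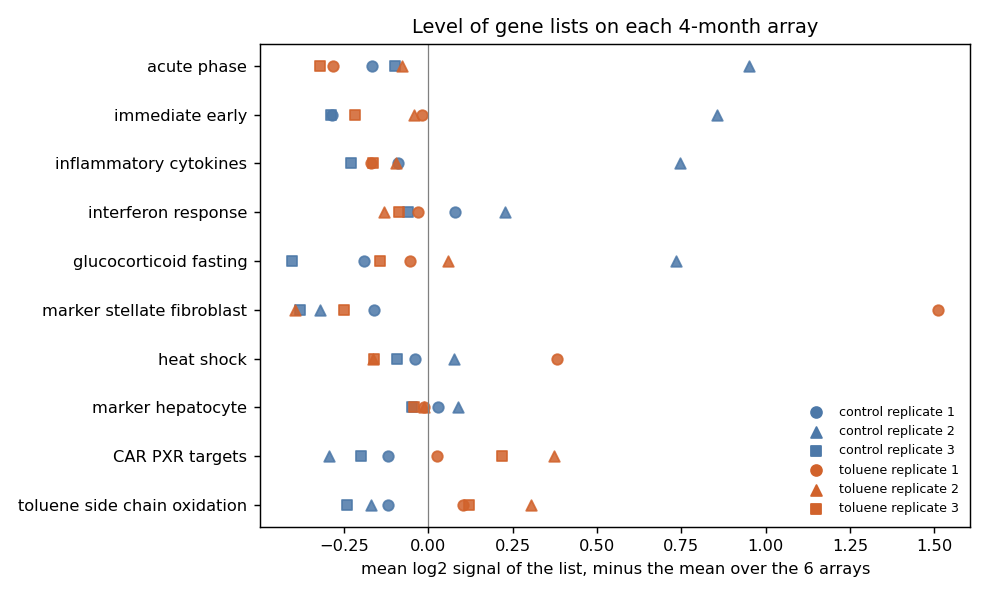
Level of 10 gene lists on each of the 6 arrays of 4 months: the horizontal axis is the mean log2 floored signal of the list's probe sets minus its mean over the 6 arrays, with controls in blue and dosed rats in orange and a symbol for each replicate. Control replicate 2 lies at 0.951 for the acute-phase list and dosed replicate 1 at 1.51 for the stellate and fibroblast list. For the CAR and PXR list the dosed arrays lie at 0.025 to 0.372 and the controls at -0.295 to -0.121. That mean includes Alas1, the Cyp2b probe set and Tsku, which was put in with its response known. The list's median log2 fold change was 0.10, and 0.04 without control replicate 2.

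At 4 months 3 probe sets passed at a Benjamini-Hochberg adjusted p under 0.05, which is 0.0215% of those tested, and all 3 were higher in the dosed rats. They belonged to Alas1, to Tsku and to a transcript with no gene symbol in the annotation, measured by probe set 1378982_at. At an unadjusted p under 0.05 there were 247 higher (1.77%) and 211 lower (1.51%). The dosed arrays all lay above the controls for 546 probe sets (3.91%) and all below them for 541 (3.87%). A log2 fold change beyond 1 in either direction was measured for 80.

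Alas1 had signals of 704, 616 and 724 in the control rats and of 2542, 2405 and 2528 in the dosed rats. The dosed arrays lay within a narrow band far above the controls, and dosed replicate 1 did not stand apart from the other dosed arrays. The group means were 681 ± 57.5 and 2491 ± 75.3 (SD, n = 3 each), and the log2 fold change was 1.87 (SE 0.24, 95% interval 1.35 to 2.40, limma adjusted p = 0.00908), a 3.67-fold rise in the transcript of the heme pathway's first enzyme.

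Tsku lay below the floor in all control rats, at 21.7, 27.4 and 26.1, and reached 348, 263 and 387 in the dosed rats. The groups were far apart, and the transcript was at or near background without toluene. Measured from the floor it was at least 10.3-fold higher (log2 fold change 3.36, SE 0.45, limma adjusted p = 0.00908), the largest positive value among all tested probe sets. The unnamed transcript of 1378982_at had signals of 48.8, 32.2 and 51.0 in controls and of 166, 222 and 225 in dosed rats. It too separated the groups, by 4.69-fold (log2 fold change 2.23, SE 0.28, limma adjusted p = 0.00908).

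**Figure D2:**
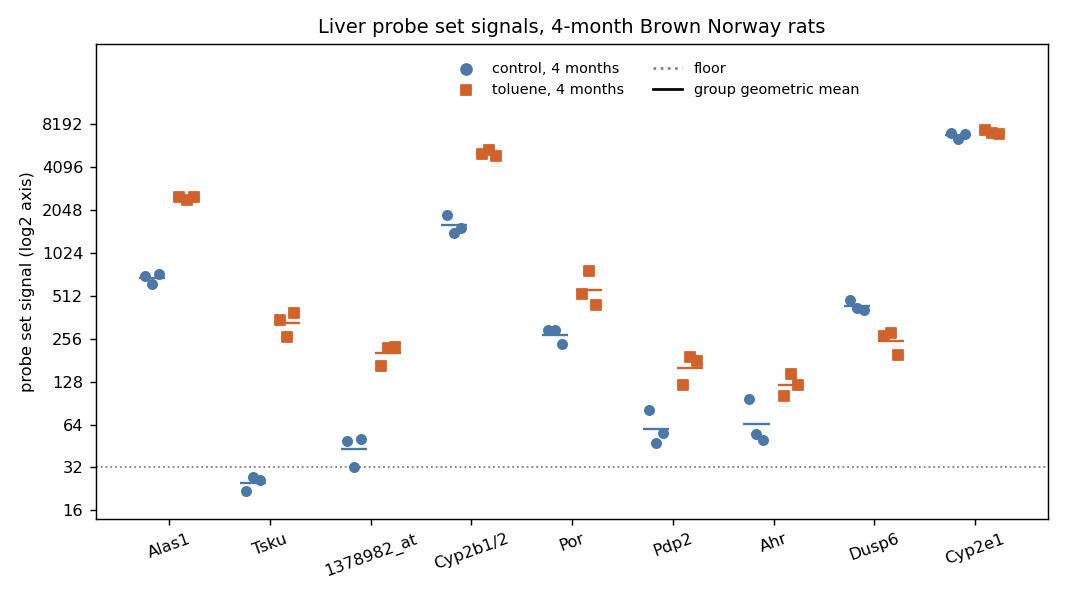
Signals of 9 probe sets on the 6 arrays of 4 months, on a log2 axis, with blue circles for control rats, orange squares for dosed rats, horizontal bars for geometric means and a dotted line at the floor of 32. Alas1 runs from 616 to 724 in controls and from 2405 to 2542 in dosed rats, Tsku lies below the floor in every control, and Cyp2e1 overlaps between the groups.

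These calls were close to the threshold once an array was left out. Without control replicate 2, which stood apart, 0 probe sets passed and all 3 had an adjusted p of 0.0621, with log2 fold changes of 1.80 for Alas1, 3.36 for Tsku and 2.02 for 1378982_at. At an unadjusted p under 0.05 there were then 168 higher and 151 lower. Without dosed replicate 1 only 1378982_at passed (adjusted p = 0.0290), and Alas1 and Tsku had adjusted p values of 0.0755 with log2 fold changes of 1.86 and 3.32. Without control replicate 3 there was 1 call, and without dosed replicate 3 there were 0.

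The next probe sets in order of p did not pass. The Cyp2b probe set, which names both Cyp2b1 and Cyp2b2, the P450s most responsive to CAR, had signals of 1899, 1421 and 1522 in controls and of 5061, 5407 and 4927 in dosed rats. The lowest dosed value was well above the highest control. The difference was 3.20-fold (log2 fold change 1.68, SE 0.31, 95% interval 1.01 to 2.35) with an adjusted p of 0.153 by limma, and the log2 fold change was 1.59 without control replicate 2 and 1.69 without dosed replicate 1. Which of these near-identical genes gave the signal cannot be told from a shared probe set.

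Both Por probe sets separated the groups as well. The one of smaller p had signals of 295, 297 and 234 in controls and of 530, 763 and 441 in dosed rats (log2 fold change 1.04, 95% interval 0.19 to 1.89), and the other gave 0.95. The unadjusted limma p values were 0.0193 and 0.0302, and the adjusted ones were 1. Without control replicate 2 the log2 fold changes were 1.10 and 1.05. The receptor gene Ahr, whose protein senses planar aromatic compounds, had 97.0, 54.7 and 50.3 in controls and 102, 144 and 121 in dosed rats. Its lowest dosed value was only just above control replicate 1 (log2 fold change 0.91, limma adjusted p = 0.665).

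Pdp2, a phosphatase that switches on the pyruvate dehydrogenase complex, was represented by a pair of probe sets that gave like values. The first had 80.9, 47.5 and 55.8 in controls and 121, 191 and 179 in dosed rats (log2 fold change 1.43, SE 0.26, limma adjusted p = 0.153), and the second had a log2 fold change of 1.54. Slc25a51, a mitochondrial NAD carrier, likewise had a pair, at 0.84 and 0.77. The transcription factor Tbx3 gave 0.82 at low signals (45.0, 27.5 and 39.5 against 69.5, 61.2 and 73.3), and Psmd9, a chaperone of proteasome assembly, gave 0.81 (168, 160 and 151 against 298, 277 and 265). Fitm2, a protein of lipid droplet formation, gave 0.60 and 0.41 on its 2 probe sets. Ifnar1, a chain of the type I interferon receptor, gave 0.54 and 0.56 on a pair whose groups were separated and 0.28, 0.14 and 0.10 on the other three, which overlapped. For Pkn2, a protein kinase, one probe set gave 0.57 and the other 0.00.

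The 20 probe sets of smallest p all separated the groups, which a choice by p of this same contrast makes likely. Of them 17 were higher and 3 lower in dosed rats, and 4 had no gene symbol. Besides 1378982_at these were 1396062_at (53.2, 46.4 and 56.1 against 132, 167 and 118, log2 fold change 1.41), 1394128_at (below the floor in all controls, and 54.6, 72.0 and 60.6 in dosed rats, 0.95 from the floor) and 1393927_at (0.50). Outside the dosed rats of 4 months, 1394128_at was above the floor only on a dosed array of 12 months (63.3). It passed the filter through the group where it was high, so its separation is no independent support. Gpsm2, which orients the mitotic spindle, gave 0.58 at low signals (39.5, 24.8 and 51.5 against 61.2, 59.7 and 59.6). The lower ones were Ncald, a neuronal calcium sensor protein (158, 216 and 115 against 75.4, 61.9 and 65.3, log2 fold change -1.23), Nat9, an acetyltransferase family member (-0.55), and LOC100909739 (-0.44). A second Ncald probe set gave -0.24 and overlapped. The highest adjusted p among the 20 was 0.886.

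**Figure D3:**
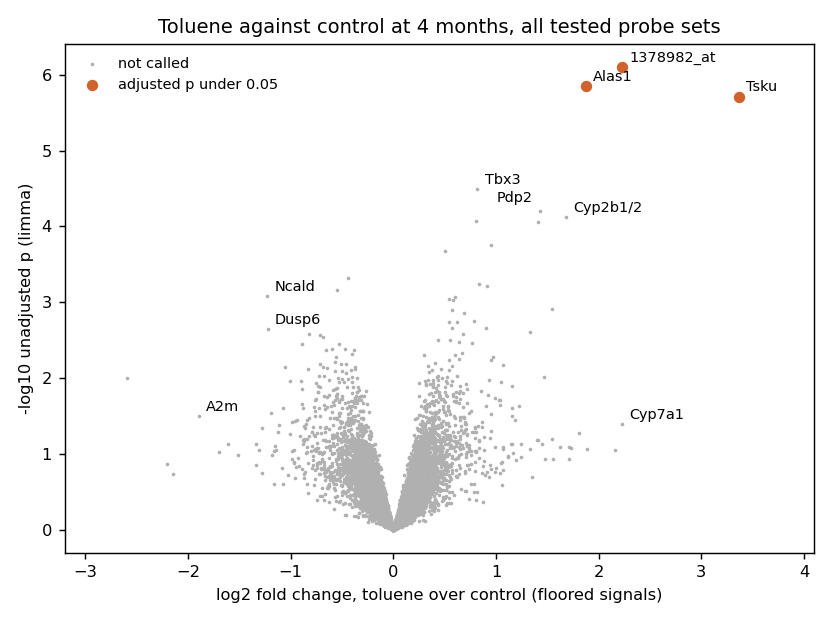
Log2 fold change of toluene over control at 4 months (horizontal axis) against -log10 of the unadjusted limma p (vertical axis) for 13972 tested probe sets, with the 3 that passed in orange. Alas1, 1378982_at and Tsku stand apart at the top right, and Cyp7a1 at 2.23 shows a large difference with a wide error.

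The enzymes that act on toluene and its products were described as lists drawn up with earlier results of these data known. For all tested probe sets the median was 0, and 1.77% were higher and 1.51% lower at an unadjusted p under 0.05. The counts of every list are to be read beside these shares. The oxidation list holds P450s that attack toluene and their electron donors. Of its 11 probe sets 9 had a positive log2 fold change, with a median of 0.07, and 3 had an unadjusted p under 0.05, all higher: the Cyp2b probe set and both of Por. Cyp2e1, the main toluene-oxidising P450 at low exposure, had 7109, 6472 and 7004 in controls and 7436, 7152 and 7058 in dosed rats, values that overlapped. Its log2 fold change of 0.07 had a 95% interval of -0.12 to 0.26. The interval for Cyp1a2, a P450 raised by aromatic compounds through Ahr, was -0.49 to 0.23, and that for Cyp2c11, the main male P450, was -0.43 to 0.60.

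The list of enzymes that carry benzyl alcohol on to hippurate had 16 probe sets with log2 fold changes from -0.22 to 0.26 and a median of 0.01. Of these, 0 had an unadjusted p under 0.05 by limma and 0 separated the groups. Without control replicate 2 the median was -0.08 and 13 of the 16 were negative. The alcohol dehydrogenase Adh1c had 7282, 6960 and 7265 in controls and 7295, 7257 and 7264 in dosed rats, a log2 fold change of 0.02 (95% interval -0.15 to 0.19). Its second, dimmer probe set gave -0.22. Aldh2, the mitochondrial aldehyde dehydrogenase, gave -0.14 (interval -0.45 to 0.17), and Glyat, which joins glycine to benzoate, gave 0.19 (interval -0.25 to 0.63). A change of 2-fold lay outside the intervals of Cyp2e1, Adh1c, Aldh2 and Glyat.

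The list of CAR and PXR targets had 31 probe sets of 29 genes, into which Tsku had been put with its response known. Positive values were found for 27, where all tested probe sets had 6823 positive and 6932 negative, and the median log2 fold change was 0.10; 2 passed and 5 had an unadjusted p under 0.05, all higher. Of all tested probe sets 1.77% were higher at that p. The groups did not overlap for 9 higher and 1 lower, where the shares over all were 3.91% and 3.87%. Beyond Alas1, Tsku, Cyp2b and Por, Ugt2b1, a glucuronosyltransferase, had 2445, 2319 and 2654 against 2814, 3670 and 3060 (0.36), the epoxide hydrolase Ephx1 had overlapping groups (0.35), and Cyp3a23-3a1, a main target of PXR, had 4229, 4446 and 4877 against 5145, 5031 and 4899 (0.16, interval -0.15 to 0.46). Gadd45b, a stress protein that CAR raises, had 2.88, 85.4 and 12.6 against 69.1, 191 and 122, values that overlapped through control replicate 2. Its log2 fold change was 1.40, and 1.87 without that array (adjusted p = 1 in both). Without control replicate 2, 22 of the 31 were positive with a median of 0.04, and 6 had an unadjusted p under 0.05.

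Targets of NRF2, the oxidant sensor, had 34 probe sets with a median of 0.12, and 1 had an unadjusted p under 0.05. The median was 0.03 without control replicate 2. Hmox1, the heme-degrading oxygenase, had 149, 980 and 77.9 in controls and 86.2, 119 and 69.4 in dosed rats, where the high value was control replicate 2. Nqo1, a quinone reductase, overlapped at -0.06, and gave 0.39 without that array. The targets of the aryl hydrocarbon receptor had tested probe sets for 7 of 11 listed genes. Their median was 0.09 over 9 probe sets, with 0 at an unadjusted p under 0.05 by limma. Of 49 probe sets of conjugating enzymes 1 was higher and 1 lower at an unadjusted p under 0.05, and of 24 of drug transporters, with a median of 0.09, 0 were. The transporters' median was -0.04 without control replicate 2.

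**Figure D4:**
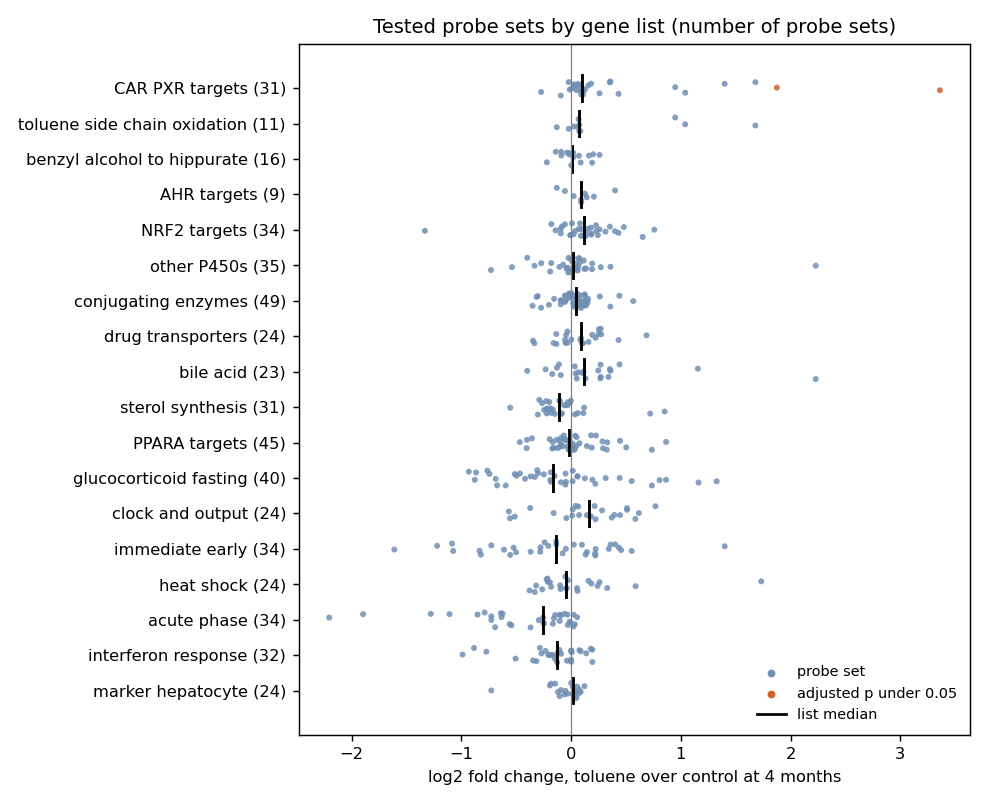
Log2 fold changes of toluene over control at 4 months for the tested probe sets of 18 gene lists, a point for each probe set, black bars for list medians and orange for an adjusted p under 0.05. The medians run from -0.25 for the acute-phase list to 0.16 for the clock list (0.06 without control replicate 2), and the orange points are Alas1 and Tsku.

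Outside drug metabolism, a lower signal was measured in all 3 probe sets of Dusp6, the phosphatase that shuts off ERK kinase and is itself an ERK target. The probe set of smallest p had 155, 170 and 136 in controls and 74.1, 57.9 and 65.8 in dosed rats. The groups were separated in each, with log2 fold changes of -1.22, -0.82 and -0.84, unadjusted limma p values of 0.00226, 0.0026 and 0.00769 and adjusted p values of 1. Egr1, a growth-factor-induced transcription factor that was picked after its values were seen, had 253, 144 and 259 against 93.3, 66.8 and 53.1 (-1.61, unadjusted p = 0.0746). The list of immediate-early genes had 34 probe sets, 20 negative and 14 positive, with log2 fold changes from -1.61 to 1.40. The 3 of Dusp6, a single gene, were lower at an unadjusted p under 0.05 (1.51% of all tested were), and 0 were higher. The groups did not overlap for 2 higher and 4 lower (3.91% and 3.87% of all tested). The list's median of -0.14 became 0.19 without control replicate 2.

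Bile acid genes had 23 probe sets, 4 of them higher at an unadjusted p under 0.05, where 1.77% of all tested were. Cyp7a1, the rate-limiting enzyme of bile acid synthesis, had 306, 41.4 and 402 in controls and 1212, 345 and 1255 in dosed rats. The groups overlapped, because dosed replicate 2 lay between the controls, and its low control was the array that stood apart. The log2 fold change of 2.23 (95% interval 0.11 to 4.35) became 1.20 without control replicate 2. Nr0b2, a repressor of Cyp7a1, also overlapped (95.9, 19.3 and 118 against 103, 167 and 234, log2 fold change 1.16). Its low control was the same array, and without it the log2 fold change was 0.58 and 1 of the 23 probe sets had an unadjusted p under 0.05, higher. Akr1c14, a hydroxysteroid dehydrogenase, had 3036, 2971 and 3059 against 3822, 3572 and 4209 on its probe set of smallest p, and all 3 of its probe sets separated the groups (0.35, 0.34 and 0.27). In sterol synthesis 25 of 31 probe sets had negative values (median -0.11), while both probe sets of Stard4, a cholesterol carrier, gave 0.72 and 0.85 with separated groups, and 0.50 and 0.74 without control replicate 2.

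Acute-phase genes were mostly below 0: 30 of 34 probe sets were negative with a median of -0.25. An unadjusted p under 0.05 was found for 3, all lower, where 1.51% of all tested were lower at that threshold. These were A2m, a protease inhibitor of inflamed rat liver (42.6, 1046 and 52.6 against 29.5, 44.2 and 28.9), Lbp, which binds bacterial lipopolysaccharide (1004, 4143 and 1113 against 589, 1057 and 740), and Stat3, the transcription factor of the response (326, 1308 and 277 against 255, 299 and 108). In each the highest value was control replicate 2 and the groups overlapped. Without it, 24 of 34 were negative, the median was -0.05 and 0 had an unadjusted p under 0.05 by limma. Interferon response genes had 32 probe sets of 26 genes, and 4 probe sets were lower at an unadjusted p under 0.05 (1.51% of all tested were). Without that array 0 were, and the median went from -0.13 to -0.05. The GTPase Irgm, among those 4, had 119, 173 and 93.2 against 65.8, 60.3 and 76.4. The rest of the 4 all named the same gene, Igtp, so they do not stand for separate genes. Why that rat's array stood apart was not tested.

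Among the other lists, glucocorticoid and fasting genes had a median of -0.17 over 40 probe sets that became 0.32 without control replicate 2. Pdk4, which switches off pyruvate dehydrogenase in fasting, had 259, 317 and 210 against 444, 683 and 344.2 (0.86), and its second probe set overlapped (0.73). Cpt1a, the gate of mitochondrial fatty acid import, had 2255, 2182 and 2229 against 1643, 2056 and 1546 (-0.36). Clock genes had a median of 0.16 over 24 probe sets, with Tef (57.8, 39.7 and 69.8 against 72.9, 98.8 and 75.1) and Clock, whose groups overlapped, higher at an unadjusted p under 0.05. The second Tef probe set gave 0.28 and the other Clock probe sets 0.22 and 0.06, all with overlapping groups. The clock median was 0.06 without control replicate 2, where 1 probe set was higher at that threshold. Per1, a clock gene also driven by glucocorticoids, was picked after its values were seen. It lay above the floor in all controls and below it in all dosed rats (36.9, 63.97 and 40.5 against 17.6, 18.3 and 22.8, unadjusted p = 0.0877).

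Stellate cell and fibroblast markers had 10 of 11 positive values with a median of 0.44, which became -0.04 without dosed replicate 1. In the heat shock list, Cryab, a small chaperone abundant in muscle, had 1581 on that array and 38.5 to 55.2 on the others, and 5 of 24 probe sets were lower with separated groups (3.87% of all tested were), among them Hsp90ab1 (1918, 1820 and 1933 against 1525, 1562 and 1637). The summed signals of the macrophage, neutrophil, B and plasma cell, T and NK cell, endothelial, stellate, bile duct and red cell marker lists overlapped between the groups. Of 16 listed T and NK cell genes 1 had a tested probe set, and of 11 neutrophil genes 2 had one.

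The same contrast in Brown Norway rats of 12 and 24 months uses different animals, though the fit shares the estimate of spread. At 12 months 5 probe sets passed (0.0358%) and at 24 months 6 (0.0429%). The 3 probe sets called at 4 months all passed at 12 months, and 0 of them passed at 24 months. Alas1 had 909, 639 and 716 against 2726, 2880 and 2648 at 12 months, a log2 fold change of 1.88. At 24 months it had 300, 572 and 728 against 728, 935 and 1122, a log2 fold change of 0.87. The highest old control and the lowest old dosed rat were nearly level, and the dosed levels were the lowest of the 3 ages.

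Tsku had 16.9, 33.4 and 27.1 against 368, 300 and 1076 at 12 months. At 24 months it had 193, 209 and 68.0 in controls and 96.9, 173 and 75.3 in dosed rats, where the groups overlapped and the controls were no longer near the floor. Its interaction of toluene with age, 24 against 4 months, was -3.73 on the log2 scale (95% interval -5.09 to -2.37) with an adjusted p of 0.144 by limma. For 1378982_at the log2 fold changes were 2.23, 1.98 and 1.19 at 4, 12 and 24 months, and the interaction at 24 months was -1.04 (adjusted p = 0.992). For Alas1 it had the same adjusted p, 0.992, with a 95% interval of -1.74 to -0.26.

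The Cyp2b probe set, which missed the threshold at 4 months, passed at both later ages with log2 fold changes of 2.80 and 2.71. Control signals were 432, 921 and 929 at 12 months and 332, 444 and 491 at 24 months, below all 4-month controls. Dosed signals were 4997, 4760 and 5206 at 12 months, which overlapped those of 4 months, and 2160, 4820 and 1963 at 24 months. The interaction of 12 against 4 months was 1.12 (95% interval 0.17 to 2.06, limma adjusted p = 0.977). That of 24 against 4 months was 1.03 (95% interval 0.09 to 1.98, limma adjusted p = 0.992). Both intervals lay above 0, but neither interaction passed after adjustment, so the responses were not shown to differ. Nr0b2 passed at 12 months, with a log2 fold change of 2.92 there.

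Over all probe sets, the interaction of 12 against 4 months had 0 calls (0%) by limma, with 446 at an unadjusted p under 0.05. That of 24 against 4 months had 1 (0.00716%), the fatty acid desaturase Scd, whose signals at 4 months lay below the floor except on control replicate 1 (36.2, 18.6 and 13.4 against 5.48, 14.9 and 25.0). Of the 20 probe sets of smallest p at 4 months, 17 had the same sign at 12 months and 10 of those had an unadjusted p under 0.05 there. At 24 months 16 had the same sign, 6 with an unadjusted p under 0.05, and 2 of the 20 were exactly 0. The share of all tested probe sets that kept their sign is not given. Among all 13972 tested probe sets, 655 had such a p by limma at 12 months and 1441 at 24 months, in either direction. Dusp6 was near 0 at both later ages (0.01 and -0.14 for the probe set of smallest p). Por had 0.77 and 0.01, and Ahr had 1.09 and 0.26.

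**Figure D5:**
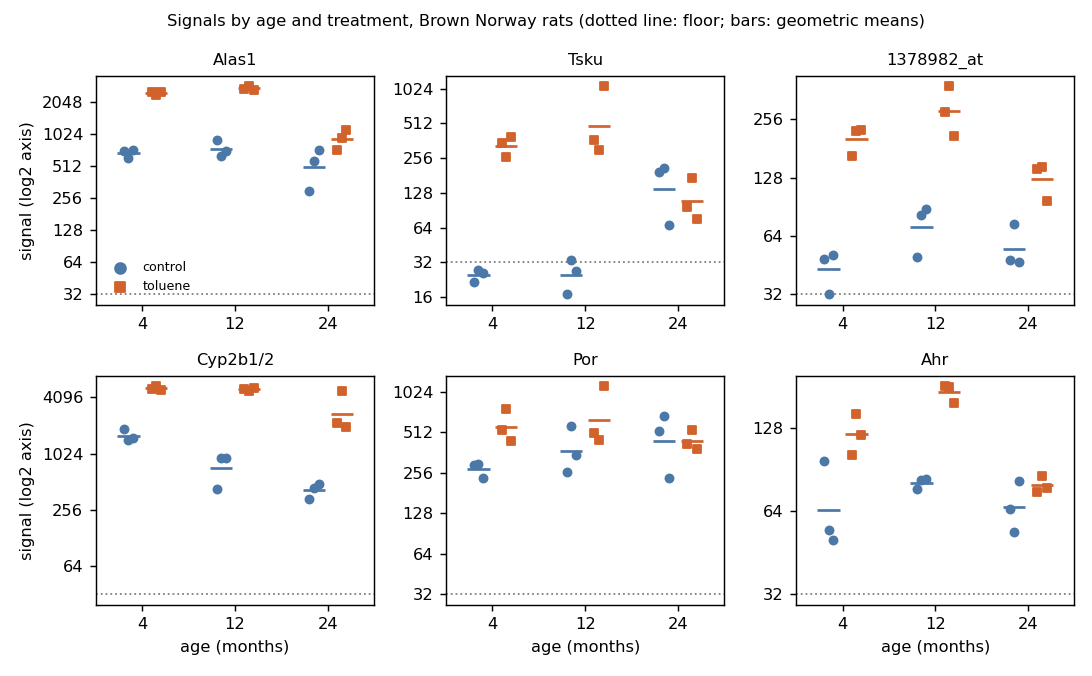
Signals of 6 probe sets in control (blue circles) and dosed (orange squares) Brown Norway rats of 4, 12 and 24 months, on log2 axes, with bars for geometric means and a dotted line at the floor of 32. Tsku is at or near the floor in controls of 4 and 12 months and at 68.0 to 209 in those of 24 months, and the Cyp2b controls of 4 months (1421 to 1899) lie above those of the later ages.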

How the data were processed

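Liver RNA of each rat was measured on an Affymetrix Rat 230 2.0 array. Each deposited value is a linear intensity of a probe set; the submitters' processing notes name MAS5 and RMA with no version, role or order. The strains had been scaled apart, so the 18 Brown Norway arrays alone were used. Control probe sets were left out, signals under 32 were set to 32, and a probe set was tested if above that floor on at least 3 of the 18 arrays. Probe sets naming 1 gene (11223), several (305) or none (2444) were kept. Gene names come from the platform annotation, updated through RefSeq. limma 3.58.1 in R 4.3.3 (lmFit, contrasts.fit, eBayes) was fitted with a mean for each of 6 groups, which leaves 12 residual degrees of freedom, and p-values were adjusted with the method of Benjamini and Hochberg over 13972 probe sets. Where all arrays of a group lie below the floor, a fold is a lower bound. The script was tested on simulated data.

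The members, lists and named genes were chosen with earlier results of these data known. By rule, the text names the 20 probe sets of smallest p and those of a fixed set of drug-metabolising genes that had a tested probe set. From each list it may name some of the 4 of smallest p. Others, among them Lcn2, Cxcl1, Tnni2, Egr1, Gadd45b, Per1 and Scd, were named after their values were seen. Columns of other samples not used numbered 0. Alternatives changed the floor, filter, scaling, moderation, weights, probe set summary and arrays. The number of arrays limits the precision.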

Additional observations from a re-analysis of the deposited data

Results flagged for a closer look

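The response of Scd, a fatty acid desaturase, differed between 24 and 4 months by a test of the difference itself. The interaction was 3.96 on the log2 scale (95% interval 2.94 to 4.99, limma adjusted p = 0.00791). At 4 months all dosed arrays and all controls but control replicate 1 (36.2) lay below the floor of 32. At 24 months controls had 26.6, 30.2 and 20.3 and dosed rats 425, 286 and 906. The value is measured from the floor, and the call was lost with a floor of 8 and with one 4 times as high.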

How the results depend on the processing

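The count of 3 probe sets at 4 months became 0 with no filter on low signals, 0 against a 2-fold minimum and 11 with array quality weights (10 higher and 1 lower, the 3 among them). With 1 array left out it ranged from 0 to 4: 0 without control replicate 2 or dosed replicate 3, 1 without control replicate 3 or dosed replicate 1. Over these 6 fits the log2 fold change ranged from 1.80 to 1.92 for Alas1 (adjusted p 0.0425 to 0.0836, passing in 2), from 3.24 to 3.52 for Tsku (0.0449 to 0.0903, passing in 2) and from 2.02 to 2.38 for 1378982_at (0.0290 to 0.0836, passing in 4). With a floor 4 times as high Tsku (1.36) and 1378982_at (0.66) no longer passed, nor did 1378982_at with the compared groups alone (adjusted p = 0.396); Alas1 passed in both. The Cyp2b probe set passed in 0 of 16 alternatives, with a lowest adjusted p of 0.103 and log2 fold changes of 1.59 to 1.80. The interaction of 12 against 4 months, with 0 calls, had 1 with no filter. That of 24 against 4 months, with 1, had 0 with a floor of 8 or of 4 times the floor used, with the filter on a 4-month group and against a 2-fold minimum, 2 with trend and robust moderation, and 3 with no filter or with array weights. The cause of these changes was not tested. Under quantile or median scaling 3 passed at 4 months. No paired analysis was possible because the labels give each rat a number of its own. Signals near the floor limit what can be seen of low transcripts.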
